A study of Mus musculus with 96 samples.

Results

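Lysosomes were examined through 38 genes that encode their hydrolases, their membrane proteins and the autophagy proteins that deliver cargo to them. The genes were chosen by name for these roles, and 32 of the 38 were among the 7394 gene targets of the table. Gla, Glb1, Gusb, Tfeb, Atg5 and Atg7 were not analysed here. By role the 32 were 8 cathepsins, 9 glycan and lipid hydrolases with their helpers, 6 proteins of the lysosomal membrane and of cholesterol export, 2 autophagy regulators, and 7 proteins of autophagosome conjugation and cargo selection. The group of 9 also held Tpp1, a peptidase, and Grn, the precursor of the granulins.

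Lysosomes are acidic organelles in which hydrolases break down proteins, lipids and glycans. Autophagy wraps cytoplasm, organelles or glycogen in a membrane that is marked by the LC3 and GABARAP proteins and then fuses with the lysosome. In the liver autophagy is known as a response to fasting, and hepatocytes share the lobule with Kupffer cells, resident macrophages that are themselves rich in lysosomal proteins.

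Liver RNA was read with GeoMx. Tagged probes bind RNA in a tissue section, ultraviolet light cuts the tags loose within one area of illumination (AOI) at a time, and the tags are sequenced and counted. The 16 mice were male, about 8 weeks old at the start, of a line backcrossed to C57BL/6, and were killed after 15 weeks on a high-fat diet (HFD) or a low-fat diet (LFD). There were 4 Wt and 4 HetKO mice on each diet, and HetKO mice carried 1 allele of Gaa disrupted in the whole body by the insertion of LoxP sites around exons 4 and 5. In each mouse 3 AOIs were taken from periportal hepatocytes, picked by a stain for E-cadherin, and 3 from perivenous hepatocytes, picked by a stain for Cyp2e1, which gave 96 AOIs. Normalized counts below are means of the 3 AOIs of a mouse and zone, and every AOI was scaled so that the third quartile of its values was 60.2.

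Deduplicated reads per AOI ranged from 60874 to 1772443. The LFD sections shared a slide and the HFD sections shared another, so that diet and slide cannot be told apart. The library names of 5 AOIs of HetKO LFD mouse 1 began differently from those of the other AOIs, and the labels do not say what this marks. Perivenous hepatocyte markers were higher perivenously in 11 of 11 tested in each of the 4 groups of mice, and periportal markers were higher periportally in 11 or 12 of 12, as the labels say. These markers include Cyp2e1 and Cdh1, the genes of the stained proteins by which the AOIs were picked. Fewer cells of a type and less RNA per cell cannot be told apart in an AOI. The negative probe, which has no mouse target and sets the limit of quantitation (LOQ), averaged 16.5 to 19.5 in the LFD groups and 23.6 to 30.6 in the HFD groups, with the highest values in Wt HFD mice 2, 3 and 4 (29.3 to 38.9 against 20.5 to 21.2 in mouse 1). Mouse 1 of Wt HFD stood apart in the same way in detection, with 45.2% of targets above the LOQ periportally and 29.6% perivenously against 12.7 to 17.6% in mice 2 to 4. Counts of members that rest on Wt HFD are therefore also given without mouse 1.

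Gaa itself, the lysosomal acid alpha-glucosidase that releases glucose from glycogen, was lower in HetKO on the LFD. Periportally it read 71, 67.9, 80.4 and 74.5 in Wt LFD and 59, 51.8, 41.1 and 50.2 in HetKO LFD mice 1 to 4. Perivenously it read 58, 57.6, 63.2 and 70.1 in Wt LFD and 55.3, 41.3, 45.4 and 37.1 in HetKO LFD. The genotypes did not overlap in either zone (exact permutation test, two-sided, n = 4 each, p = 0.0286, the smallest that 4 against 4 allow), yet the adjusted p over all genes was 0.999 in both zones. On the HFD the genotypes overlapped, with 48.9 ± 7.99 in Wt and 42.6 ± 10.8 in HetKO periportally and 46.3 ± 7.28 and 41 ± 5.28 perivenously (SD, n = 4). Gaa was then near background, above the LOQ in 2 and 1 of 12 AOIs in Wt HFD and in 3 and 3 of 12 in HetKO HFD, so a genotype difference could not be judged on that diet. In Wt it was lower periportally on the HFD than on the LFD (log2 fold change -0.59 ± 0.187, adjusted p = 0.0238).

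The members were detected to very different degrees, and the ones near the LOQ carry little information. Lamp1, an abundant glycoprotein of the lysosomal membrane, and Psap, the precursor of the saposins that help degrade sphingolipids, were above the LOQ in 96 of 96 AOIs. Map1lc3b, an LC3 protein of the autophagosome membrane, was above it in 95, Lamp2 in 94, and Ctsl and Sqstm1 in 92 each. At the other end stood Becn1, a subunit of the lipid kinase complex that starts autophagosomes, in 19 of 96 AOIs, Tpp1, a lysosomal tripeptidyl peptidase, in 22, Ulk1, the kinase that initiates autophagy, in 25, and Ppt1, a palmitoyl-protein thioesterase, in 26. A gene was tested when 10 or more AOIs were above the LOQ, and all 32 passed.

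Detection of the members fell with the diet. In Wt 79.9% of member and AOI pairs were above the LOQ periportally on the LFD and 47.7% on the HFD, and perivenously 81.8% and 36.5%. In HetKO these shares were 91.7% and 71.9% periportally, and 90.6% and 68.5% perivenously. Over all gene targets the same shares went from 50.3% to 23% and from 55.4% to 19% in Wt, so the loss was not particular to lysosomal genes. Becn1 was above the LOQ in 19 of 48 AOIs on the LFD and in 0 of 48 on the HFD, and Ulk1 in 23 and 2.

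**Figure D1:**
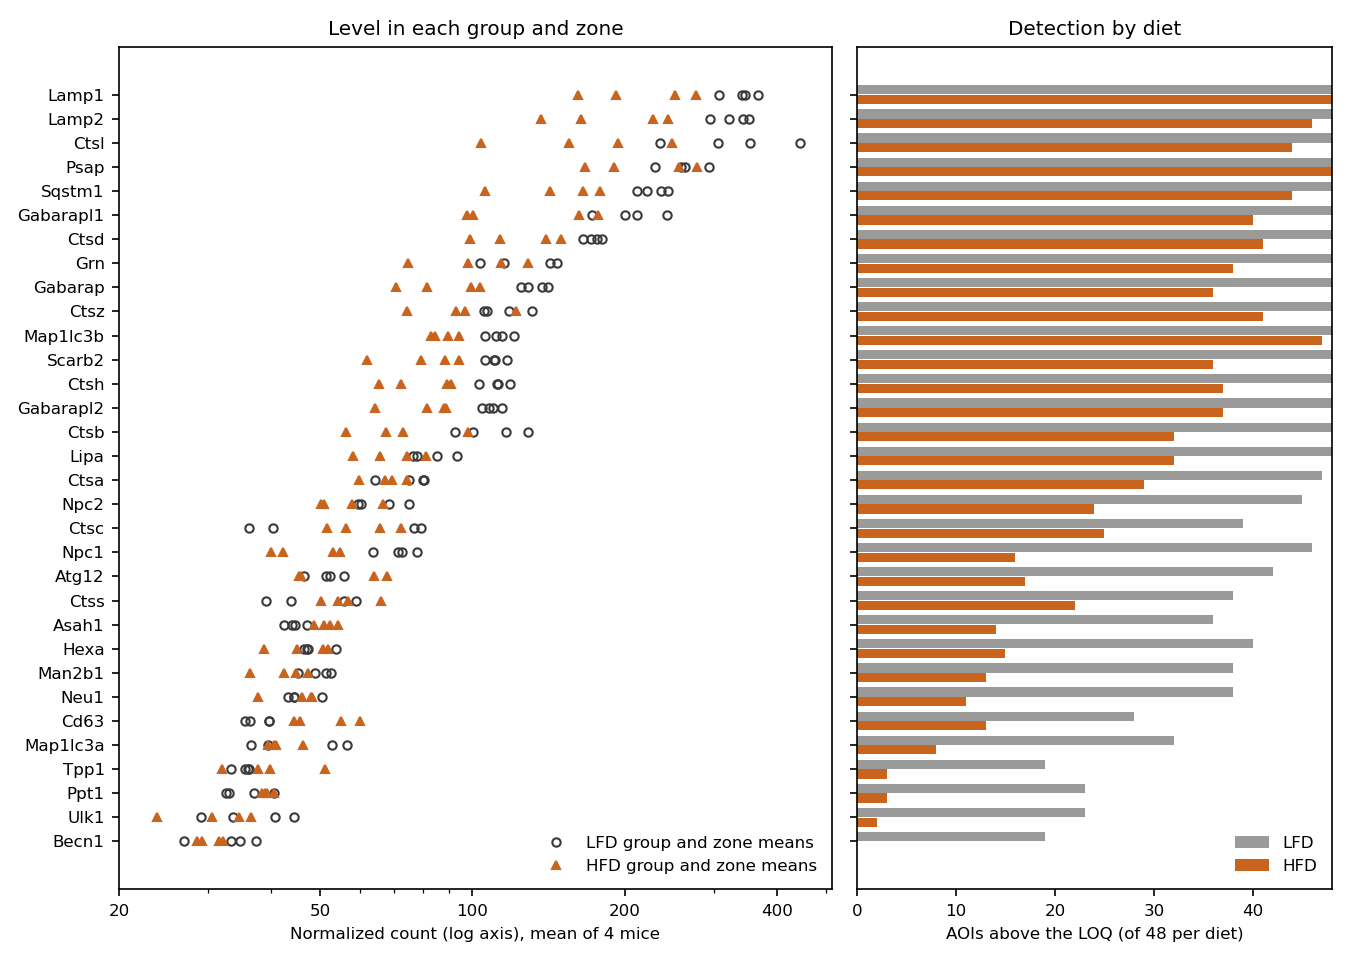
Left, normalized count (log axis) of each of the 32 members, 1 symbol per group and zone (mean of 4 mice), with open circles for LFD and triangles for HFD. Right, number of AOIs above the LOQ of 48 per diet; every member but Lamp1 and Psap was above the LOQ in fewer AOIs on the HFD than on the LFD, down to 0 for Becn1.

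Lysosomal genes are known to share an E-box, CACGTG, through which the transcription factor TFEB acts, and promoters of members are shown for that reason, those of Ctsl, Lamp1 and Lamp2, which passed tests below, and that of Ctsd, a cathepsin with no call. They are RefSeq sequences of GRCm38.p6, written 5′ to 3′ on the gene's strand from 250 bases before to 50 after the annotated start, with CACGTG in capitals. This motif is its own reverse complement, so 1 search covers both strands. Ctsl (chr13:64370471-64370770, minus strand), Ctsd (chr7:142387778-142388077, minus strand), Lamp1 (chr8:13158911-13159210, plus strand) and Lamp2 (chrX:38456411-38456710, minus strand) are given in turn.
Ctsl: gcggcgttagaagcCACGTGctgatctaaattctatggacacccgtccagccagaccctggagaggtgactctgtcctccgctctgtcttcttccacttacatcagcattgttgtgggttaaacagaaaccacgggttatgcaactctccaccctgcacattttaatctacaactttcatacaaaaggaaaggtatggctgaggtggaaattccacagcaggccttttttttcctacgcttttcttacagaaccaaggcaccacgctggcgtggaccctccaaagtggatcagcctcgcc
Ctsd: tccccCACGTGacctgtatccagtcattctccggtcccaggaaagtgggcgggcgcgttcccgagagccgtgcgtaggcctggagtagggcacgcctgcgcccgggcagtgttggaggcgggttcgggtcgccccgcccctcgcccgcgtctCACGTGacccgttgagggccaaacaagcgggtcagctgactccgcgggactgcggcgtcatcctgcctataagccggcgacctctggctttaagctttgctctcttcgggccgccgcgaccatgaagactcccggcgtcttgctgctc
Lamp1: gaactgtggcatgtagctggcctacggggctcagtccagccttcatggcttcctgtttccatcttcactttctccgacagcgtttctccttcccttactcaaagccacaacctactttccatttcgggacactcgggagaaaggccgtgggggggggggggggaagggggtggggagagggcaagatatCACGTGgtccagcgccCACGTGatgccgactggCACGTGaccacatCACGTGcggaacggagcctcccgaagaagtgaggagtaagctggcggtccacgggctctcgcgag
Lamp2: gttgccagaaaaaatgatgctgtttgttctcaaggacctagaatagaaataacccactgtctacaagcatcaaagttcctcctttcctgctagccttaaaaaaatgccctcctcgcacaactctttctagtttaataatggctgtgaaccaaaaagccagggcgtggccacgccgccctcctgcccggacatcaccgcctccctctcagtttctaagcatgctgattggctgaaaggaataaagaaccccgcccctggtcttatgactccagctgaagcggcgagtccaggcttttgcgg
Lamp1 held 4 copies, 61, 45, 28 and 15 bases before the start, Ctsd held 2, 245 and 98 bases before it, and Ctsl held 1, 236 bases before it, while Lamp2 held 0. The Ctsl start is an inner one. That gene, on the minus strand, is annotated up to chr13:64370772, so the whole Ctsl window and its motif lie within the gene. The Ctsa window with the motif, named below, also begins inside its gene (at 164833523, the plus-strand gene at 164832872). Of the 25 members of the table with a promoter entry, 4 (16%) held the motif, the fourth being Ctsa, and 3 (12%) held it at least 2 times. Of 27025 genes with an entry, 8.09% held it and 0.681% held it at least 2 times. These are matches of letters only. No entry was found for Ctsb, Ctsh, Asah1, Npc1, Becn1, Atg12 or Map1lc3a.

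Along the lobule, the clearest difference was in cathepsin L. Ctsl, a cysteine protease of the lysosome, was higher in periportal than in perivenous hepatocytes of every one of the 16 mice, although under scaling by nuclei its mean difference in HetKO HFD was 0.06 the other way, against a median of 0.73 for all genes. In Wt LFD mice 1 to 4 it read 238, 307, 413 and 459.6 periportally and 159, 186, 259 and 338 perivenously, in Wt HFD mice 357, 157, 180.2 and 81.7 and 168, 106, 80.7 and 60.4. In HetKO LFD mice it read 465, 420.4, 483 and 407 periportally and 314, 305, 347 and 259 perivenously, in HetKO HFD mice 285, 237, 280.2 and 192 and 171, 152, 164 and 134. Within each mouse the perivenous value was the lower, while the levels of the mice overlapped between zones in Wt and not in HetKO. The log2 difference (perivenous minus periportal, ± SE, mouse as block) in Wt was -0.60 ± 0.106 for LFD and -0.82 ± 0.125 for HFD mice (adjusted p = 0.000341 and 0.000352). In HetKO it was -0.54 ± 0.0907 and -0.66 ± 0.0993 (adjusted p = 0.000953 and 1.42e-05). All 4 calls were kept whichever mouse was left out, but none of the 4 was kept under scaling by nuclei, where the sign turned in HetKO HFD and 0 members passed by zone in Wt LFD, Wt HFD or HetKO LFD.

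Ctsc, the cathepsin that activates serine proteases of immune cells and is also known as dipeptidyl peptidase 1, was higher periportally on the LFD by more than any other member. It read 84.9, 77, 81.6 and 72.3 periportally and 41.4, 40.6, 31.6 and 30.9 perivenously in Wt LFD, and 80.8, 70.7, 85.3 and 69.5 and 39.2, 53.5, 32.5 and 36.2 in HetKO LFD. The zones did not overlap in either genotype. On the LFD Ctsc was above the LOQ in 12 of 12 periportal AOIs of each genotype, and perivenously in 5 of 12 in Wt and 10 of 12 in HetKO. The size of the Wt difference is therefore uncertain. The log2 differences were -1.13 ± 0.135 and -0.94 ± 0.129 (adjusted p = 1.78e-06 and 0.000142), and both calls were kept whichever mouse was left out but lost under scaling by nuclei. On the HFD they were -0.39 ± 0.132 in Wt and -0.37 ± 0.114 in HetKO and did not pass the test (adjusted p = 0.199 and 0.0504). On that diet Ctsc read 68, 70.7, 77 and 73.6 periportally and 64.2, 56.4, 52.5 and 52.1 perivenously in HetKO, and 52.3, 43.6, 47.6 and 62.2 perivenously in Wt. It was above the LOQ in 7 of 12 perivenous AOIs in HetKO and in 2 of 12 in Wt. The change of the zone difference with diet was 0.74 ± 0.194 in Wt and 0.57 ± 0.185 in HetKO (adjusted p = 0.127 and 0.819). By limma this did not pass in either genotype, while edgeR called it in Wt and not in HetKO.

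Map1lc3a, a second LC3 protein, went the other way on the LFD and was higher perivenously in 4 of 4 mice of each genotype. It read 34.1, 39.9, 49.4 and 34 periportally and 49, 57.5, 70.4 and 49.4 perivenously in Wt LFD, and 39.2, 35.2, 38.1 and 33.4 and 49.96, 45.1, 58.6 and 57.6 in HetKO LFD. The log2 differences were 0.54 ± 0.135 and 0.52 ± 0.101 (adjusted p = 0.0122 and 0.0031), and with a mouse left out the adjusted p reached 0.0853 and 0.0203. On the HFD the values were -0.04 and 0.26 (adjusted p = 0.967 and 0.283), with Map1lc3a above the LOQ in at most 4 of 12 AOIs of a group and zone.

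The remaining zone calls were on the periportal side, mostly cathepsins. Ctsb, another lysosomal cysteine protease, was lower perivenously in 4 of 4 mice of HetKO LFD and of HetKO HFD (log2 difference -0.35 ± 0.0953 and -0.42 ± 0.111, adjusted p = 0.0322 and 0.0149), and its HetKO HFD difference turned to 0.29 under scaling by nuclei. In HetKO HFD mice it read 122, 110.2, 81.2 and 78.9 periportally and 89, 68, 74.1 and 60.6 perivenously, and in HetKO LFD mice 141, 108, 136 and 130.1 and 93.9, 86.7, 101 and 119.8. The levels of the mice overlapped between the zones on both diets, and the perivenous value was the lower within each mouse. In Wt LFD its difference was -0.35 (adjusted p = 0.0882). Ctss, a cathepsin of antigen-presenting cells, was lower perivenously on the LFD, with a log2 difference of -0.56 in Wt and -0.36 in HetKO (adjusted p = 0.0463 and 0.0418). Perivenously on the LFD Ctss was above the LOQ in 6 of 12 AOIs in Wt and 10 of 12 in HetKO. Grn, the precursor of the granulins, was likewise lower, at -0.52 and -0.30 (adjusted p = 0.0168 and 0.048), with 115, 124, 177 and 173 periportally and 88.6, 112, 86.2 and 127 perivenously in Wt LFD. Ctsz, a carboxypeptidase, was lower in HetKO on both diets (-0.36 on the LFD and -0.39 on the HFD, adjusted p = 0.0413 and 0.0235), and its HetKO HFD difference was 0.33 under scaling by nuclei. On the HFD it read 137, 119.9, 106 and 124 periportally and 87.7, 79.7, 95.7 and 108 perivenously in HetKO. Ulk1 passed in HetKO LFD (-0.39, adjusted p = 0.0215), with 47.8, 44.6, 47.4 and 37.8 periportally and 33.6, 38, 33.3 and 29.3 perivenously. In that group Ulk1 was above the LOQ in 11 of 12 periportal and 4 of 12 perivenous AOIs. Tpp1 was lower perivenously in Wt HFD (44.7, 56.2, 49.2 and 54.1 against 35.1, 31.4, 24.9 and 36.4, log2 difference -0.73 ± 0.149, adjusted p = 0.0067), although it was above the LOQ in 2 and 0 of 12 AOIs. Next to it in Wt HFD were Sqstm1 and Scarb2, which did not pass (log2 difference -0.44 and -0.37, adjusted p = 0.0542 and 0.135), with Sqstm1 at 211, 129, 152 and 77.9 periportally and 159, 113, 87.8 and 62.8 perivenously.

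Markers of Kupffer cells moved with several of these genes. Of 13 Kupffer and macrophage markers tested, 8 were lower perivenously in Wt and 7 in HetKO on the LFD, and 0 and 2 on the HFD. The summed level of the 14 such markers in the table was 685 to 908 periportally and 466 to 658 perivenously in Wt LFD, and 708 to 957 and 562 to 699 in HetKO LFD. On the HFD it was 597 to 1024 and 571 to 811 in Wt, and 731 to 1092 and 658 to 917 in HetKO, so that the zones overlapped. No such marker was at 0 in any AOI, and they were above the LOQ in 5 (Marco) to 81 (C1qa) of 96 AOIs. The part of macrophages in the zone differences of the members was not tested.

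In counts, 4 members were lower and 1 higher perivenously in Wt LFD (12.5% and 3.12% of 32, against 3.61% and 3.31% of all 6805 genes tested). In Wt HFD 2 were lower and 0 higher (6.25% and 0.0%, against 1.63% and 0.911%). In HetKO LFD 7 were lower and 1 higher (21.9% and 3.12%, against 3.84% and 4.23%). In HetKO HFD 3 were lower and 0 higher (9.38% and 0.0%, against 2.95% and 2.95%). Cathepsins made up 12 of these 16 calls toward the portal side, and the 6 proteins of the lysosomal membrane and cholesterol export made up 0. The median difference of the 32 members in Wt was -0.11 (LFD) and -0.20 (HFD), in HetKO -0.09 and -0.08, and that of all genes was within 0.03 of 0 in each. Without the mouse as a block, 1 and 0 members passed in Wt and 2 and 1 in HetKO, against 151 and 17, and 133 and 212 of all 6805 genes. Of the 18 zone calls 8 were kept whichever mouse was left out, those of Ctsl, of Ctsc, of Map1lc3a in HetKO LFD and of Tpp1. Leaving out HetKO LFD mouse 1, 2 or 3 lowered the count in HetKO LFD from 8 to 3 or 4, leaving out Wt LFD mouse 1 that in Wt LFD from 5 to 3, and leaving out HetKO HFD mouse 2 that in HetKO HFD from 3 to 1, whereas 2 passed in Wt HFD whichever mouse was left out. Of 105 further lysosome and autophagy genes that were tested, Gaa among them, 2 and 0 were lower and 0 higher in Wt (LFD, then HFD) and 3 and 3 were lower and 2 and 0 higher in HetKO, with the smallest adjusted p in each group that had calls for Gm2a, the GM2 activator that presents gangliosides to hexosaminidase (log2 difference -0.84 in Wt LFD, -0.70 in HetKO LFD and -0.66 in HetKO HFD, adjusted p = 7.5e-05, 0.000142 and 0.000253).

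**Figure D2:**
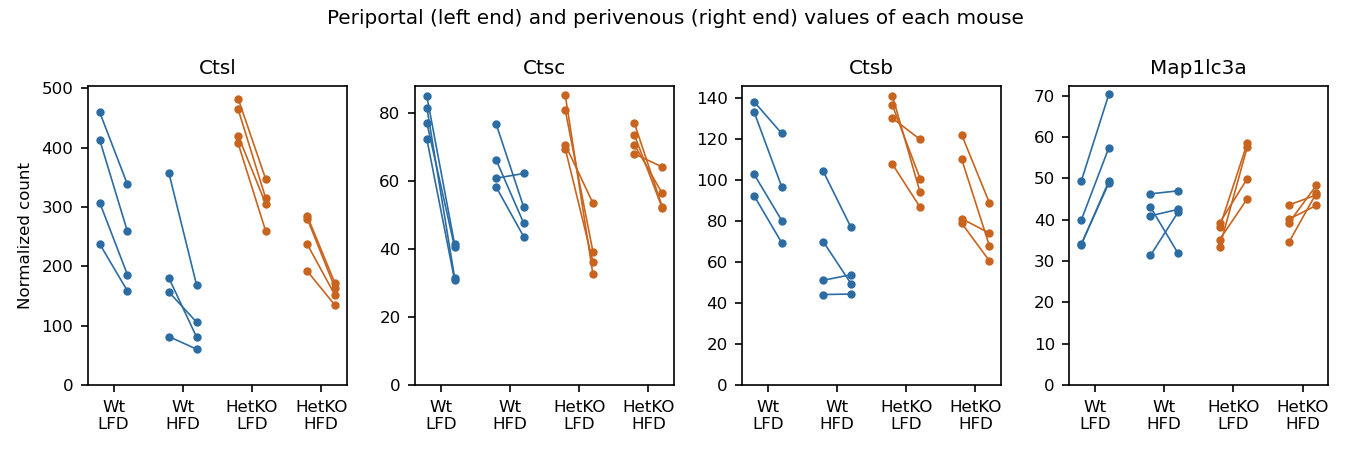
Normalized counts of Ctsl, Ctsc, Ctsb and Map1lc3a in each mouse; each line joins the periportal (left) and perivenous (right) value of 1 mouse, and each group holds 4 mice. The Ctsl lines fall in all 16 mice on this scale (not in the mean of HetKO HFD when scaled by nuclei), the Ctsc lines fall most on the LFD, and the Map1lc3a lines rise in the 8 LFD mice.

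Between the diets, most calls were falls on the HFD. Of the 6 membrane and cholesterol export proteins 3 and 4 fell in Wt (periportally, perivenously) and 0 and 2 in HetKO, and of the 8 cathepsins 1 and 3 in Wt and 1 and 2 in HetKO. Of all genes tested 11.7% and 11.1% fell in Wt and 4.36% and 8.86% in HetKO. Under scaling by nuclei 0 members passed in any of the 4 diet comparisons, as did 0 to 8 of all genes. In a fit of all 4 groups 16 and 17 members passed in Wt, against 2756 and 2768 of 6805 genes. In HetKO 0 members passed in either zone of that fit, against 2 and 1 of all genes. Ctsl was lower on the HFD in both zones of HetKO mice, and the diets did not overlap. Its periportal values were 465, 420.4, 483 and 407 on the LFD and 285, 237, 280.2 and 192 on the HFD (log2 fold change -0.85 ± 0.175, adjusted p = 0.02), and its perivenous values 314, 305, 347 and 259 and 171, 152, 164 and 134 (-0.98 ± 0.155, adjusted p = 0.00508). In Wt the perivenous values of Ctsl were also lower (-1.23 ± 0.327, adjusted p = 0.0167), with mouse 1 of Wt HFD at 168 inside the LFD range of 159 to 338. Periportally the Wt difference was -1.01 ± 0.39 and did not pass (adjusted p = 0.0539), and without mouse 1 it was -1.37 ± 0.296 (adjusted p = 0.00097). The HetKO periportal call was lost when HetKO LFD mouse 1 or 3 or HetKO HFD mouse 3 was left out (adjusted p = 0.0828, 0.0515 and 0.0635), and the perivenous one was kept whichever mouse was left out.

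Lamp2, the membrane protein whose isoforms serve fusion with autophagosomes and chaperone-mediated autophagy, fell in both zones of Wt. It read 222, 293, 316 and 351 in Wt LFD and 243, 118, 110.3 and 75 in Wt HFD periportally, and 271, 297, 359.6 and 445 and 283, 125, 167 and 82.4 perivenously. Mice 2 to 4 on the HFD were below all LFD mice, and mouse 1 was not. The log2 fold changes were -1.23 ± 0.338 and -1.21 ± 0.362 (adjusted p = 0.012 and 0.0255). In HetKO Lamp2 read 398, 319.8, 362 and 331 on the LFD and 280.0, 250.4, 205 and 238 on the HFD perivenously, with no overlap (-0.54 ± 0.163, adjusted p = 0.0286), and the periportal change was -0.51 (adjusted p = 0.0593), with 359.9, 286, 311 and 331 on the LFD and 264, 238, 213 and 196 on the HFD. With a mouse left out the adjusted p of the Wt calls reached 0.0533 periportally and 0.0946 perivenously. Lamp1 moved likewise in Wt (-1.03 periportally and -1.07 perivenously, adjusted p = 0.0432 and 0.043), with 308, 126, 129.6 and 83.6 in the perivenous zone of Wt HFD mice 1 to 4 against 212, 321, 283 and 412 on the LFD.

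Npc1, the membrane transporter that moves cholesterol out of lysosomes, had the smallest adjusted p of the members in both zones of Wt. It read 64.9, 53.1, 76.5 and 90.7 on the LFD and 45.3, 36, 46 and 41.6 on the HFD periportally, and 56, 74, 83.8 and 96.7 and 53.6, 28.4, 36.7 and 41.1 perivenously, and in neither zone did the diets overlap. The adjusted p were 0.00882 and 0.00963, and in HetKO it passed perivenously (-0.41 ± 0.126, adjusted p = 0.0288). On the HFD Npc1 was above the LOQ in 1 of 12 AOIs in each zone of Wt, so the fitted log2 fold changes there (-0.76 and -0.98) are set by background readings and do not give the size of the fall. Npc2, its soluble partner, was at -0.49 and -0.24 in Wt and did not pass (adjusted p = 0.11 and 0.347). Scarb2, the receptor that carries glucocerebrosidase to lysosomes, was lower in Wt perivenously (88.4, 106, 112 and 117 on the LFD and 94.9, 49.9, 53 and 49.7 on the HFD, log2 fold change -0.83 ± 0.236, adjusted p = 0.0211). In Wt HFD Scarb2 was above the LOQ in 4 of 12 perivenous AOIs, so the size of that fall is uncertain.

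Among the autophagy proteins, Gabarapl1, a GABARAP protein that is conjugated to the autophagosome membrane, fell in 3 of the 4 diet comparisons. Perivenously it read 144, 176, 236 and 246 in Wt LFD and 184, 72.6, 77.1 and 56.7 in Wt HFD, and 243, 249, 210.5 and 268 in HetKO LFD and 177, 147, 149.6 and 176 in HetKO HFD. In HetKO the diets did not overlap, and in Wt only mouse 1 of the HFD group reached the LFD values. The log2 fold changes were -0.91 ± 0.331 and -1.16 ± 0.329 in the 2 zones of Wt and -0.58 ± 0.149 in HetKO perivenously (adjusted p = 0.0429, 0.021 and 0.0145), and -0.23 in HetKO periportally (adjusted p = 0.42). Its relative Gabarap passed in both zones of Wt (-0.84 and -0.86), and Gabarapl2 perivenously in Wt (-0.74) and HetKO (-0.40). In Wt HFD Gabarap was above the LOQ in 8 of 12 AOIs periportally and 5 of 12 perivenously, and Gabarapl2 in 4 of 12 perivenously. Sqstm1, the cargo receptor p62 that links ubiquitin to LC3, fell perivenously in Wt (-1.05 ± 0.314, adjusted p = 0.0253) and HetKO (-0.50 ± 0.149, adjusted p = 0.0259). In HetKO it read 227, 204, 239 and 274 on the LFD and 166, 151, 179 and 167 on the HFD perivenously, with no overlap, and periportally 234, 232, 257 and 253 and 210.3, 154, 201 and 151, also with no overlap but without passing (adjusted p = 0.0673). Ulk1 fell in HetKO perivenously (33.6, 38, 33.3 and 29.3 against 23.5, 23.6, 26.4 and 21.7, -0.52 ± 0.144, adjusted p = 0.0205), where the HFD values were at or below the negative probe's mean of 25.8 in 3 of 4 mice.

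Ctsb fell in 3 comparisons, -0.85 and -0.71 in Wt and -0.48 in HetKO perivenously (adjusted p = 0.0198, 0.035 and 0.0238). It read 92.3, 103, 138 and 133 in Wt LFD and 104, 51.1, 69.9 and 44.1 in Wt HFD periportally. Mice 2, 3 and 4 on the HFD were again below every LFD mouse. In Wt HFD Ctsb was above the LOQ in 5 of 12 AOIs periportally and 3 of 12 perivenously, so the sizes of its Wt falls are uncertain. Ctsh, an aminopeptidase, fell in Wt perivenously (-0.62, adjusted p = 0.0387), and Map1lc3b in HetKO perivenously (-0.44, adjusted p = 0.03). Ctsh was above the LOQ in 6 of 12 perivenous AOIs of Wt HFD. Ctsd, the main aspartic protease of lysosomes, and Psap did not pass in any diet comparison. Ctsd read 137, 160.0, 179 and 244 in Wt LFD and 224, 77.9, 91.1 and 59.9 in Wt HFD periportally, and Psap 201, 249.8, 311 and 271 and 374, 127, 148 and 113. For both, mice 2 to 4 of Wt HFD were below the LFD mice and mouse 1 was not.

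Some members had higher normalized counts on the HFD. In Wt periportally, AOIs above the LOQ went from 6 to 3 of 12 for Cd63, from 8 to 6 for Atg12 and from 3 to 2 for Tpp1. The level over the negative probe went from 2.4 to 2.01, from 2.81 to 2.28 and from 2.15 to 1.72 in the same order, while the mean of the negative probe went from 16.5 to 29.7. The part of that background in the rises was not tested. Cd63, a tetraspanin of late endosomes, was higher periportally in both genotypes, with 41.1, 43.9, 44.3 and 28.9 on the LFD and 77.7, 60.7, 51.9 and 49.1 on the HFD in Wt, and 35.5, 39, 45.6 and 38.5 and 60.9, 57.6, 56.2 and 45.1 in HetKO. The diets did not overlap in Wt and overlapped slightly in HetKO. The log2 fold changes were 0.60 ± 0.192 and 0.44 ± 0.132 (adjusted p = 0.0237 and 0.046), and the HetKO value turned to -0.40 under scaling by nuclei, where the median of all genes was -0.81. Atg12, the ubiquitin-like protein that is joined to ATG5, rose periportally in Wt (55, 46.5, 42.4 and 41.4 to 62.8, 61.7, 75.6 and 71.3, 0.56 ± 0.179, adjusted p = 0.0254), as did Tpp1 (37, 37.4, 34 and 33.2 to 44.7, 56.2, 49.2 and 54.1, 0.50 ± 0.157, adjusted p = 0.0235). With a mouse left out the adjusted p of Cd63 reached 0.11 in Wt and 0.151 in HetKO, and in HetKO it passed in 0 of 8 such fits. Ctsc rose perivenously in HetKO (0.50 ± 0.143, adjusted p = 0.0226), where it was low on the LFD, and it passed in 4 of 8 fits with a mouse left out. There its AOIs above the LOQ went from 10 to 7 of 12. Its level over the negative probe went from 2.07 to 2.18, while the mean of that probe went from 19.5 to 25.8.

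**Figure D3:**
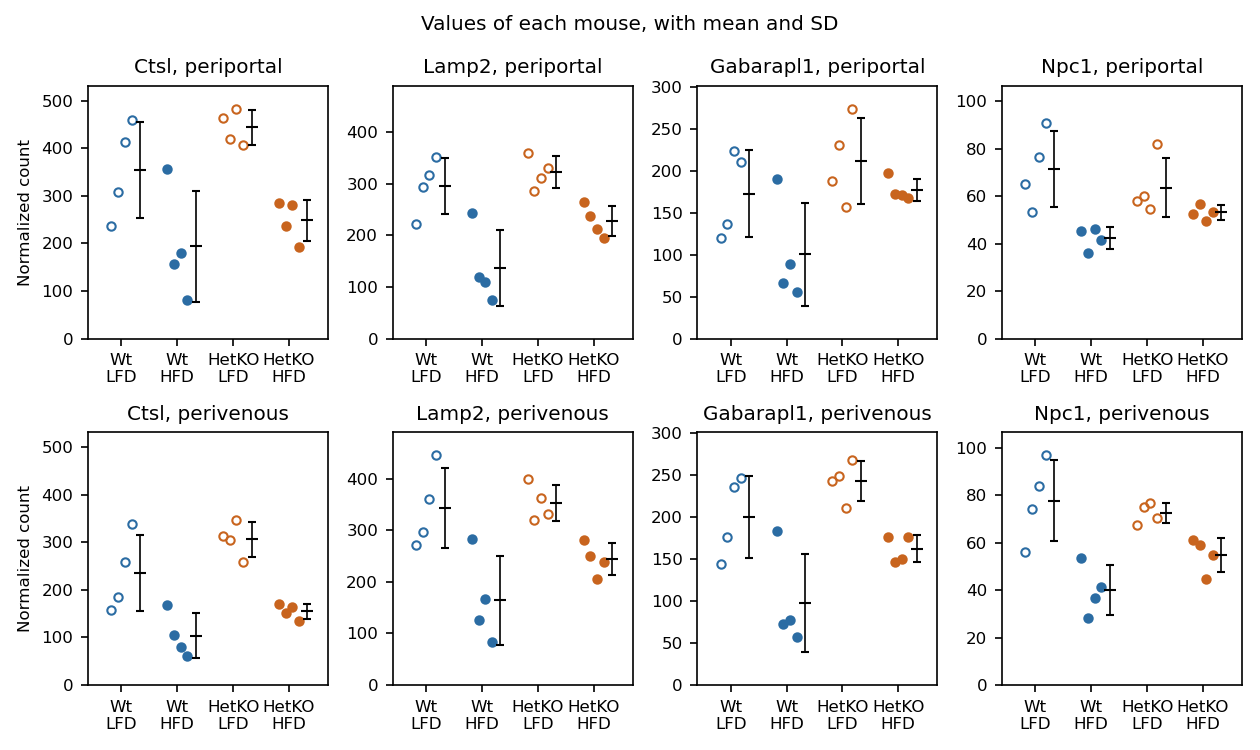
Normalized counts of Ctsl, Lamp2, Gabarapl1 and Npc1 in each mouse (points, 4 per group; open for LFD, filled for HFD) with the mean and SD beside them, periportally (top) and perivenously (bottom). In Wt HFD 3 mice lie low and mouse 1 lies within the LFD range for Ctsl, Lamp2 and Gabarapl1.

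The 7 conjugation and cargo proteins gave 2 falls and 1 rise periportally and 4 falls perivenously in Wt, and 0 and 4 falls in HetKO. The 9 glycan and lipid hydrolases and helpers gave 0 falls and 1 rise in the 4 diet comparisons, that of the peptidase Tpp1. Over all 32 members, 6 were lower and 3 higher in Wt periportally (18.8% and 9.38%, against 11.7% and 18.2% of all genes tested), and 11 lower and 0 higher in Wt perivenously (34.4% and 0.0%, against 11.1% and 12.9%). In HetKO 1 was lower and 1 higher periportally (3.12% each, against 4.36% and 3.85%), and 9 lower and 1 higher perivenously (28.1% and 3.12%, against 8.86% and 13.6%). The median fold change of the members was -0.42 and -0.48 in Wt and -0.21 and -0.19 in HetKO (periportal, then perivenous), and that of all genes lay between 0.02 and 0.11.

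Genes with high values often fell on the HFD. Of 1661 genes whose mean was above the third quartile, 40.5% fell in Wt periportally, 39.3% in Wt perivenously, 15.4% in HetKO periportally and 30.6% in HetKO perivenously. Of the 18 members in that range, 27.8%, 55.6%, 5.56% and 38.9% fell. The median fold change of such genes was -0.58, -0.61, -0.26 and -0.31 in the same order, beside -0.64, -0.73, -0.27 and -0.31 for the 18 members. Of 10 hepatocyte markers 2, 2, 3 and 4 fell, with median fold changes of -1.25, -1.35, -0.59 and -0.70. The share of targets above the LOQ and the negative probe moved with the diet as given above, and their part in the diet results was not tested.

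Without mouse 1 of Wt HFD the diet comparisons in Wt called more members. Periportally 17 of 32 were lower and 3 higher (53.1% and 9.38%, against 19.3% and 24% of all genes), with Lamp2 at -1.55, Lamp1 at -1.42 and Ctsd at -1.22. Perivenously 18 were lower and 0 higher (56.2% and 0.0%, against 19.3% and 22.7%), with Gabarapl1 at -1.52 and Sqstm1 at -1.27. In the same fits 7 and 8 of 10 hepatocyte markers were lower and 0 higher (periportal, perivenous), with medians of -1.53 and -1.65. Wt HFD mice 2 to 4, which were kept, had 12.7 to 17.6% of targets above the LOQ and a negative probe of 29.3 to 38.9. The part of level and background in these counts was not tested. Leaving out some of the other mice lowered the counts. Periportally they went from 9 to 2 without Wt HFD mouse 4 or Wt LFD mouse 4 and to 3 without Wt HFD mouse 2 or Wt LFD mouse 3. Perivenously they went from 11 to 1 without Wt HFD mouse 2, 3 or 4 or Wt LFD mouse 3 or 4. Without Wt LFD mouse 1 no diet call in Wt was lost. That mouse had the lowest share of targets above the LOQ in Wt LFD (35% periportally, 42.6% perivenously). Of the 32 diet calls 3 were kept whichever mouse was left out, those of Npc1 in both zones of Wt and of Ctsl perivenously in HetKO. In HetKO the periportal count went from 2 to 0 without HetKO LFD mouse 1 or 3 or HetKO HFD mouse 3 and to 6 without HetKO LFD mouse 2, and the perivenous count from 10 to 1 without HetKO HFD mouse 2, to 2 and 3 without HetKO LFD mouse 3 and 1, and to 5 and 6 without HetKO HFD mouse 3 and 4. Among the 105 further lysosome and autophagy genes, 12 were lower and 8 higher in Wt periportally and 8 and 3 perivenously, and in HetKO 2 and 0, and 8 and 3. Their medians lay between -0.01 and 0.06. The smallest adjusted p among them belonged to Siae, a sialic acid esterase that rose in Wt periportally (0.70, adjusted p = 0.00849), Pld3, a lysosomal nuclease that rose in Wt perivenously (0.83, adjusted p = 0.00823), Atp6v0d1, a subunit of the proton pump that fell in HetKO periportally (-0.54, adjusted p = 0.0293), and Cd164, a sialomucin that fell in HetKO perivenously (-0.69, adjusted p = 0.0068).

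**Figure D4:**
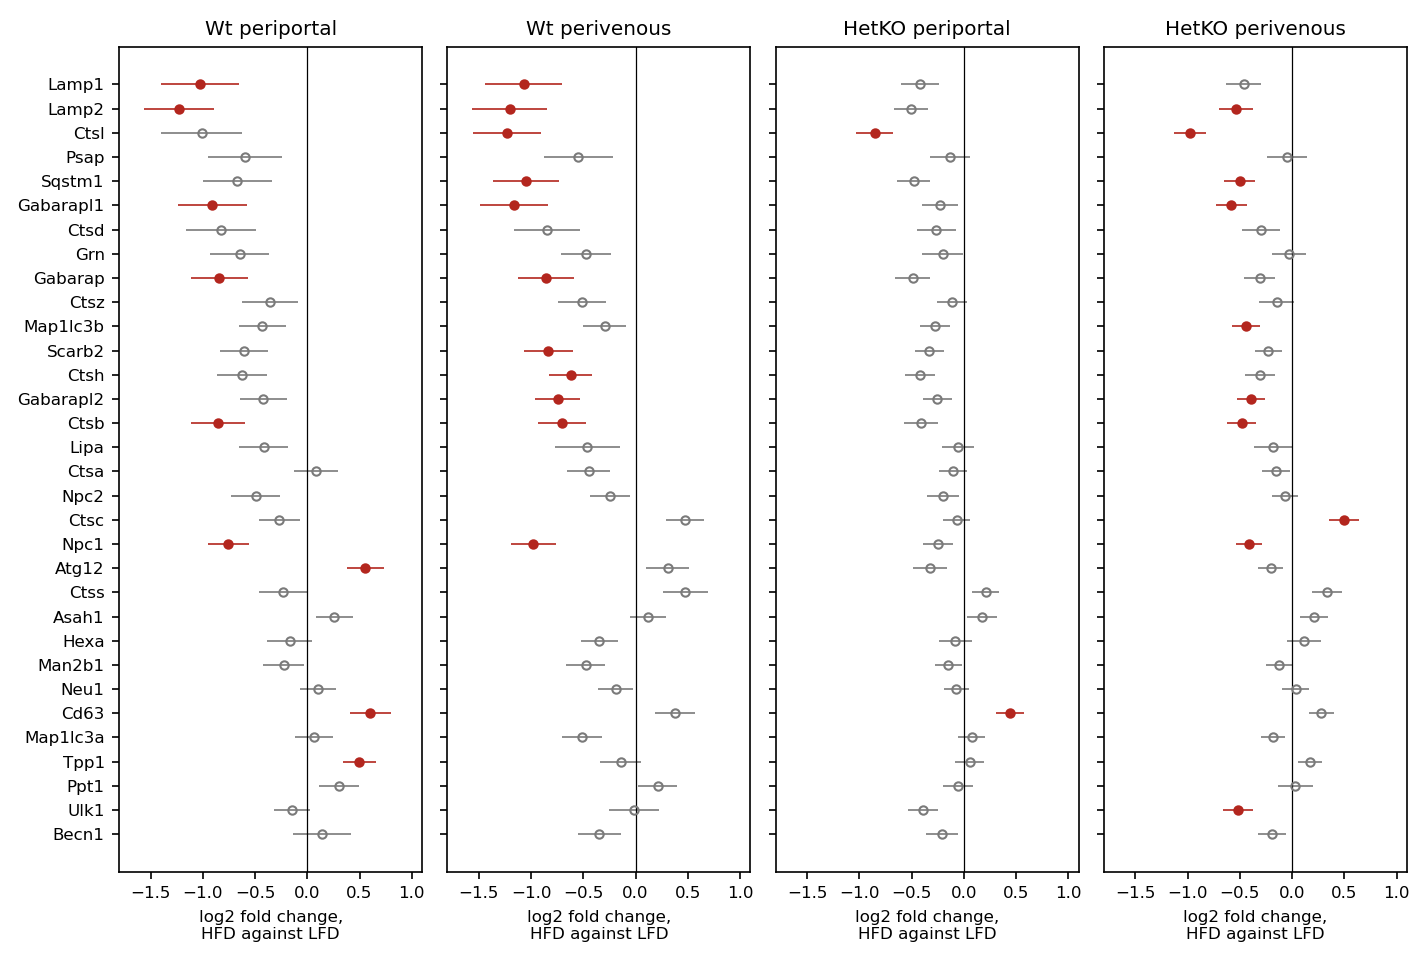
Log2 fold change (HFD against LFD) of the 32 members, ± SE from the fit with 4 mice per group, in each genotype and zone; members are ordered by mean level, highest at the top, and filled red points passed an adjusted p under 0.05. In Wt the values lie most to the left among the members with the highest levels, and in HetKO the same members lie closer to 0.

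The genotypes were compared because Gaa is itself a lysosomal enzyme. On the LFD 0 of 32 members passed in either zone by limma, against 0.0% of all 6805 genes in each direction, and 0 had an unadjusted p under 0.05. By edgeR and by DESeq2 the count was also 0. The largest difference of a member was that of Ctsl, 0.37 periportally (238, 307, 413 and 459.6 in Wt and 465, 420.4, 483 and 407 in HetKO) and 0.44 perivenously, and the Wt and HetKO mice overlapped for every member. Over all genes 1.34% were higher and 0.279% lower in HetKO without overlap periportally, and 1.01% and 0.279% perivenously. The members with the smallest p were Ctsa, the protective protein of neuraminidase, and Atg12 periportally (0.32 ± 0.153 and 0.28 ± 0.145), with Ctsa at 58.1, 64, 76.6 and 58.4 in Wt and 73.1, 86.5, 69.5 and 90.9 in HetKO, and Ctsl and Gabarapl1 perivenously (0.44 ± 0.24 and 0.30 ± 0.211), all with an adjusted p of 0.999. The median difference of the members was 0.12 and 0.09, beside 0.07 for all genes in each zone.

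On the HFD 0 of 32 members passed in either zone by limma (0.0% of all genes, in each direction), and 0 by edgeR or DESeq2. DESeq2 gave an adjusted p to 2055 of 6805 genes periportally and 4430 perivenously, and called 17 and 11 of them. By limma an unadjusted p under 0.05 was reached by 7 members periportally and 15 perivenously, of 973 and 939 genes in all. Without overlap, Npc1 was higher in HetKO periportally (52.5, 56.8, 49.6 and 53.4 against 45.3, 36, 46 and 41.6 in Wt), while Atg12 (51.1, 52.9, 46.7 and 30.5 against 62.8, 61.7, 75.6 and 71.3) and Tpp1 (40.2, 35.1, 43.7 and 31.6 against 44.7, 56.2, 49.2 and 54.1) were lower. This is 1 member higher and 2 lower, against 2.26% and 2.48% of all genes. Perivenously Ctsh (107, 91.3, 77.3 and 87.7 against 76.7, 61.8, 64.6 and 58.7) and Tpp1 (38.2, 42.2, 41.8 and 36.5 against 35.1, 31.4, 24.9 and 36.4) were higher without overlap and 0 were lower, against 3.26% and 2.03% of all genes. Tpp1 thus differed in opposite directions in the 2 zones, with 0 to 2 of 12 AOIs of a group above the LOQ. The median difference of the members was 0.30 periportally and 0.39 perivenously, beside -0.01 and 0.03 for all genes.

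Without mouse 1 of Wt HFD, members were higher in HetKO on the HFD in both zones. Periportally 14 were higher and 2 lower (43.8% and 6.25%, against 14.4% and 6.05% of all genes), and perivenously 17 and 1 (53.1% and 3.12%, against 15.9% and 7.08%). Gabarapl1 was at 1.36 ± 0.175 and 1.24 ± 0.177 (adjusted p = 6.04e-05 and 5.47e-05), beside 1.00 and 0.89 with all mice. Lamp2 was at 1.19 and 1.05, Lamp1 at 1.12 and 1.19, Psap at 1.05 and 1.04, and Atg12 at -0.63 and -0.60. In the same fits the medians of 10 hepatocyte markers were 1.02 and 1.03, and 7 of 13 Kupffer markers were higher in each zone. The 3 Wt mice kept in these fits were those with the highest negative probe, 29.3 to 38.9 against 20.7 to 27.6 in HetKO HFD, and the part of that gap was not tested. Whether members passed therefore depended on mouse 1.

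**Figure D5:**
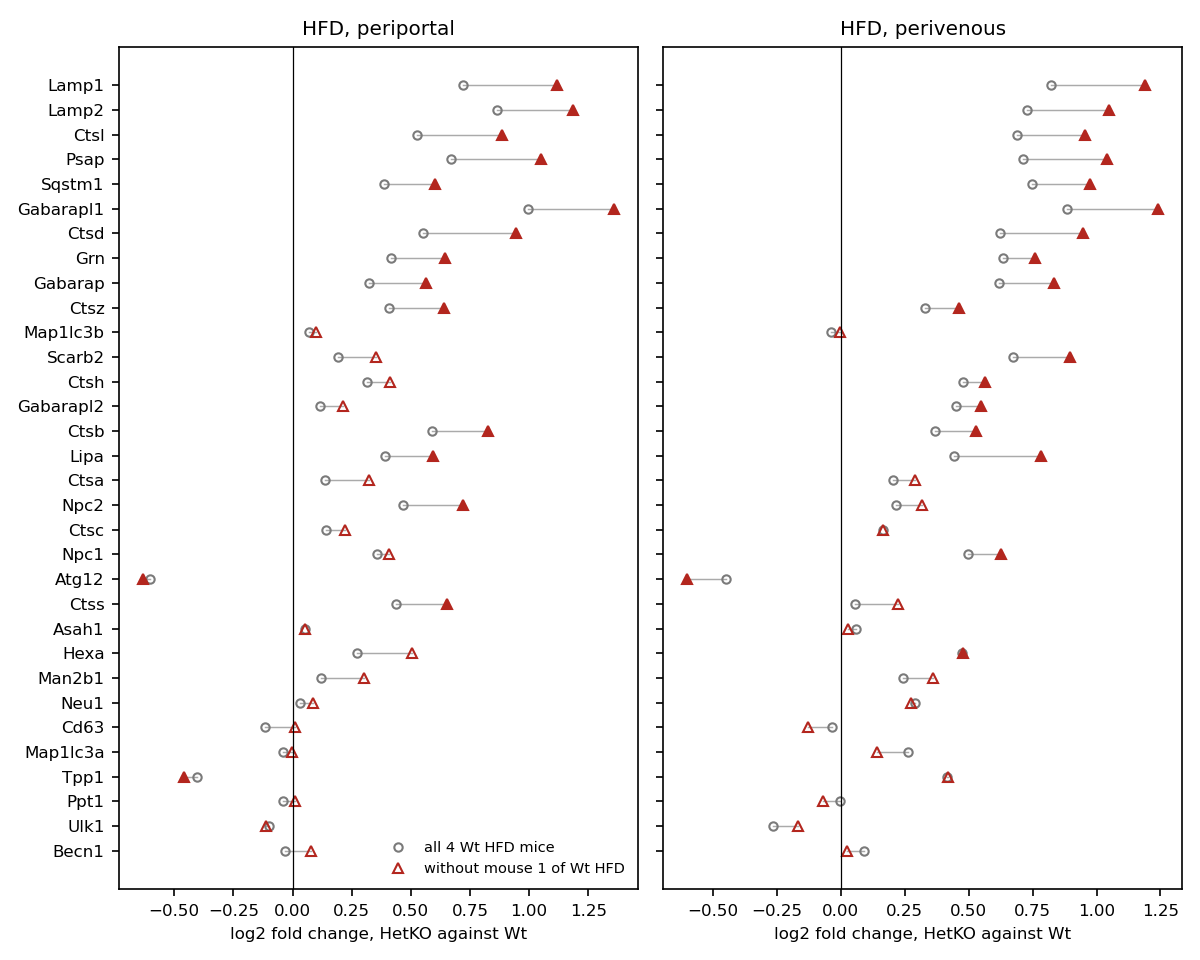
Log2 fold change (HetKO against Wt on the HFD) of the 32 members, periportally and perivenously, with all 4 Wt HFD mice (grey circles, 0 members passed) and without mouse 1 (red triangles, filled where the adjusted p was under 0.05, 16 and 18 members). Most members move further to the right without that mouse.

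Whether the diet effect differed between the genotypes was tested directly. By limma 0 of 32 members and 0.0% of all genes passed in either zone, and 0 by edgeR or DESeq2, with an unadjusted p under 0.05 for 3 members in each zone. The interaction was 0.72 ± 0.383 for Lamp2 and -0.88 ± 0.233 for Atg12 periportally (adjusted p = 0.5 and 0.462). Without mouse 1 of Wt HFD they passed, at 1.04 ± 0.282 and -0.91 ± 0.237 (adjusted p = 0.0453 and 0.0398), which is 1 member higher and 1 lower against 2.22% and 0.632% of all genes, and perivenously 0 members passed against 0.0882% and 0.0%. Whether the diet effect differed between the zones was tested in the same way. In Wt 0 of 32 passed by limma against 0.441% of all genes, and 5 members had an unadjusted p under 0.05. By edgeR 1 passed (Ctsc) against 81 of 6805 genes, and by DESeq2 0 against 25 of 4562. In HetKO 0 passed by all 3 tools against 0.0294% of all genes, and 2 members had an unadjusted p under 0.05.

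Over the 12 comparisons of genotype, diet and zone there were 50 calls, which fell on 21 of the 32 members. The 11 members with no call were Ctsd, Ctsa, Psap, Hexa, Neu1, Lipa, Man2b1, Asah1, Ppt1, Npc2 and Becn1. Hexa, Neu1, Man2b1 and Asah1, which act on gangliosides, sialic acid, mannose chains and ceramide, were above the LOQ in 49 to 55 of 96 AOIs, and Lipa, the acid lipase that releases cholesterol and fatty acids, in 80.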

How the data were processed

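Probes of the GeoMx mouse transcriptome atlas were counted in 96 AOIs of 5 µm FFPE liver sections. The submitters' processing notes name the GeoMx NGS Pipeline 2.3.3.10 and mm10, and the sources used here name no other build. The deposited signal values were counts that the authors scaled so that the third quartile was 60.2 in each AOI, whereas the methods speak of scaling to nuclei. Dividing by each AOI's factor gave whole reads for 99.93 to 99.96% of values (within 0.01). The deposited AOI summary gave counts of nuclei, of deduplicated reads, of the negative probe and of the LOQ. Another 8 per-sample columns of the table were not used.

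Values were averaged per mouse and zone as log2(value + 1), 4 mice per group, and fitted with limma 3.58.1 (trend, R 4.3.3) over the 6805 genes that passed the LOQ in 10 or more of 96 AOIs, with a call at a Benjamini-Hochberg adjusted p under 0.05. Fold changes are on that scale, which understates changes of low genes. Zones were compared with the mouse as block, so their p-values rest on the spread of the zone difference among mice. Diets and genotypes were compared between separate mice, so their p-values rest on the spread among the mice of a group. That spread does not cover a difference between the slides, which goes with diet. For the diet effect between zones alone, the perivenous minus periportal difference of each mouse was fitted without the trend. The scripts were tested on simulated data. The design named this limma fit as main because the table is scaled. edgeR 4.0.16 (quasi-likelihood) and DESeq2 1.42.0 on the recovered reads were alternatives; edgeR called 1955, 2459, 994 and 1761 genes by diet (Wt periportal, Wt perivenous, HetKO periportal, HetKO perivenous), 624, 197, 615 and 502 by zone (Wt LFD, Wt HFD, HetKO LFD, HetKO HFD) and 0 by genotype. Other alternatives were the detection filter, the pseudocount, averaging before the log, scaling by nuclei, subtraction of the negative probe, 1 fit of all 4 groups, blocks, and each mouse left out.

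The members and the gene lists were chosen with earlier results of these data known. Values in every mouse are given for the members with the 4 smallest adjusted p in each zone and diet comparison, for those without overlap between genotypes (or the 2 smallest p), and for Gaa. Further values in every mouse, of Lamp1, Sqstm1, Ctsd and Psap among others, were chosen after values were seen. Replicate numbers of different groups mark different mice. The counts measure probes, so an order of genes by level is not an order of their RNA amounts. Such an order was used to split genes at the third quartile and to arrange figures.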

Additional observations from a re-analysis of the deposited data

Results flagged for a closer look

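In 6 of 144 groups of 4 mice (18 genes, each group and zone), 1 mouse lay far from the other 3, with a gap that took most of the group's range. Chance alone would give about 1 in 20 such groups. Mouse 1 of Wt HFD was the high one in 3 of the 6, perivenously, with Gabarapl1 at 184 (others 56.7 to 77.1), Ctsz at 96.6 and Scarb2 at 94.9. The same mouse had more targets above the LOQ than the other Wt HFD mice in both zones. Periportally, mouse 1 of HetKO HFD had Gabarapl1 at 197 against 168 to 173 in the others, and mouse 4 of HetKO LFD had Ctsz at 148. Perivenously, mouse 2 of Wt LFD was the low one for Ctsa, at 65.4.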

How the results depend on the processing

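Counts of members called changed most with the scaling. Under scaling by nuclei 22 members passed for HetKO against Wt on the LFD periportally, 0 in each of the 4 diet comparisons, 0 by zone in Wt LFD, Wt HFD and HetKO LFD, and 10 by zone in HetKO HFD, while the median of all genes moved to 0.84, -0.81 (HetKO diet, periportal) and 0.73 (HetKO HFD zones). Of all 6805 genes, 5659 passed in that genotype comparison and 3781 by zone in HetKO HFD under the same scaling, so these counts are not particular to the members. That scaling turned Cd63 (-0.40, HetKO periportal diet), and Ctsl (0.0604), Ctsb (0.29) and Ctsz (0.33) between the zones of HetKO HFD, and no other alternative turned a called member. In a fit of all 4 groups, 16 and 17 members passed by diet in Wt (periportal, perivenous) and 0 and 0 in HetKO, against 2756 and 2768 of all 6805 genes in Wt and 2 and 1 in HetKO. DESeq2 called 6 by diet in HetKO periportally, against 980 of 6804 genes with an adjusted p. By zone DESeq2 called 2 and 1 in Wt (LFD, HFD) and 2 and 1 in HetKO. Of genes with an adjusted p it called 317 of 4166 and 125 of 1528 in Wt, and 319 of 5749 and 256 of 3770 in HetKO. edgeR called 5 by zone in HetKO HFD and 1 for diet by zone in Wt, against 502 and 81 of all 6805 genes. With the negative probe subtracted 3 passed by zone in Wt LFD and 5 in HetKO HFD, against 395 and 423 of all 6805 genes. Under that subtraction the median of all genes moved to -0.98 in both zones by diet in Wt and to 0.61 and 0.64 by genotype on the HFD. With the stricter detection filter 1 passed by diet in HetKO periportally and 3 by zone in Wt LFD, against 358 and 401 of 2908 genes. Without the mouse as block (no replicate block) 1 and 0 passed by zone in Wt (LFD, HFD) and 2 and 1 in HetKO. Of all 6805 genes 151 and 17 passed there in Wt and 133 and 212 in HetKO. Same-numbered mice of different groups deviated together in some pairs and apart in others (correlation -0.59 to 0.48), so the numbers do not pair them. With the number as a replicate block 2 and 7 members passed by genotype on the HFD, 4 and 1 by diet in Wt and 1 in HetKO periportally. The same fits called 199 and 280 of 6805 genes by genotype on the HFD, 1361 and 365 by diet in Wt and 381 in HetKO periportally. Leaving out each mouse in turn gave 0 to 0 by genotype on the LFD in both zones, 0 to 16 and 0 to 18 on the HFD, 2 to 20 and 1 to 18 by diet in Wt, 0 to 6 and 1 to 13 in HetKO, 3 to 4 and 2 to 2 by zone in Wt (LFD, HFD) and 3 to 9 and 1 to 3 in HetKO, 0 to 2 and 0 to 0 for diet by genotype, and 0 to 0 for diet by zone in both genotypes. Of the fits with a mouse left out, counts over all genes were given above only for those without mouse 1 of Wt HFD. The cause of these changes in the counts of members was not tested. Counts with another pseudocount, no detection filter or averaging before the log stayed within 1.5 times the reported ones. Members above the LOQ in few AOIs (Becn1, Tpp1, Ulk1, Ppt1) are limited by signal over background.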
